A study of Mus musculus with 18 samples.

Results

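The handling of cholesterol after it reaches the lysosome was followed here through 10 of the 55487 genes in a table of raw liver RNA-seq counts. The 10 genes were chosen by symbol, for their place in lysosomal release of cholesterol and in the cycle between free and esterified cholesterol, with earlier results of these data known: Lipa, Npc1, Npc2, Stard3, Gramd1b, Soat1, Soat2, Nceh1, Scarb1 and Lcat. All 10 passed the filter on low counts in every comparison. The livers came from male C57BL/6J mice that were bought at 7 weeks of age, acclimatized for 1 week and injected with an adeno-associated virus (AAV8) 1 week before a diet of 16 weeks, then fasted for 4 h before collection. CON-GFP mice received the purified control diet and a GFP vector, FPC-GFP mice a diet rich in fructose, palmitate and cholesterol (FPC) and the GFP vector, and FPC-LIPA mice the FPC diet and a vector with human LIPA, which encodes lysosomal acid lipase (LAL). All 18 mice, 6 in each group, thus carried an AAV, and in each vector the hepatocyte promoter TBG drove the transgene. FPC-GFP and FPC-LIPA mice also received water with fructose and glucose, so the diet below stands for food and water together. Livers with the LIPA vector on the control diet were not analysed here, so the vector was compared within the FPC diet only. The table counts mouse genes: Lipa below is the endogenous mouse gene, and the human transgene has no entry of its own, so it could not be used to check the labels.

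Cholesteryl esters that arrive in lipoproteins, or in lipid droplets delivered by lipophagy, are cut to free cholesterol in the lysosome by LAL. The soluble protein NPC2 then hands the cholesterol to the membrane protein NPC1, which passes it out to other membranes. In the endoplasmic reticulum it can be esterified again by the acyltransferases SOAT1 and SOAT2, and in plasma LCAT esterifies the cholesterol of HDL, whose esters the liver takes up through SCARB1.

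In GRCm38 the lysosomal genes with sequences shown lie at chr19:34492318-34527474 (Lipa) and chr12:84754562-84773152 (Npc2) on the minus strand and at chr11:98358368-98381112 (Stard3, plus strand). Gramd1b lies at chr9:40293233-40531383 and Soat1 at chr1:156424525-156474331, both on the minus strand, and Soat2 at chr15:102150526-102163469 on the plus strand. Nceh1 lies at chr3:27182965-27284608 on the plus strand, and Scarb1 at chr5:125277087-125341094 and Lcat at chr8:105939551-105943382 on the minus strand.

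The sequences upstream of Lipa, Npc2 and Soat1 are shown because each of these genes passed a test below, and those of Nceh1 and Stard3 because they held a searched motif. RefSeq promoter entries (build GRCm38.p6, 250 bases before to 50 after a start site) were matched for 6 of the 10 genes, Lipa, Npc2, Stard3, Soat1, Nceh1 and Lcat; Npc1, Soat2, Scarb1 and Gramd1b had none. The 100 bases directly upstream of the annotated gene are given 5′ to 3′ on the gene's own strand, with the pentamer CCAAT, on either strand, in capitals.
Lipa, chr19:34527475-34527574, minus strand: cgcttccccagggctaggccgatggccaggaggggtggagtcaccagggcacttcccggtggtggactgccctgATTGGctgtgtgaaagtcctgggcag
Npc2, chr12:84773153-84773252, minus strand: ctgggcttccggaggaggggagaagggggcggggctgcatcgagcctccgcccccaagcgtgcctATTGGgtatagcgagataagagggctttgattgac
Soat1, chr1:156474332-156474431, minus strand: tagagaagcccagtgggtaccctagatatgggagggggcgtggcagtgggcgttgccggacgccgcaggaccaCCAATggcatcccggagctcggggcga
CCAAT was searched after these sequences had been read, so its count among the 6 genes is no test of enrichment. It was in the entries of 6 of the 6 genes and in 37.4% of the 32851 promoter entries of all genes. Of 3 motifs set for the search, the E-box core CACGTG was in the Nceh1 entry, 26 bases before the RefSeq start and just inside the GENCODE gene, and in 7.15% of all entries.
Nceh1, chr3:27182966-27182995, plus strand, E-box in capitals: cctgaggaggaaCACGTGaaacagcagctg
The sterol regulatory element TCACNCCAC was in the Stard3 entry, 211 bases before the start, and in 1.24% of all entries.
Stard3, chr11:98358145-98358174, plus strand, element in capitals: cacagttcccctTCACTCCACagtgtcagg
The LXR response element (AGGTCA, any 4 bases, AGGTCA) was in none of the 6 entries and in 0.0152% of all. Both strands were searched, and the 2 matches lay in different entries. A match describes letters in the window and no binding was measured.

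Depth ran from 16632146 to 37739301 counts per liver, with a median of 28802835.5. Cytosolic ribosomal protein genes, 84 in number, took 1.40% to 2.88% of the counts in 15 livers and 6.36%, 8.00% and 8.04% in FPC-LIPA 36, 37 and 39, which therefore stood apart from the rest. Each label ends in a sample-sheet number, and 14 of the livers had 55 to 68. The rest, with other numbers, were CON-GFP 1, CON-GFP 2, FPC-GFP 20 and FPC-LIPA 37. The labels name a stranded and an unstranded library kit without saying which liver had which. The sum over 10 hepatocyte markers was 68366 to 105888 counts per 1000000 scaled counts (CPM) in CON-GFP livers. It was 60633 to 86524 CPM in FPC-GFP and 48538 to 75061 CPM in FPC-LIPA livers. The sum over 10 monocyte and macrophage markers was 67.9 to 131 CPM in CON-GFP livers. It was 169.9 to 430.3 CPM in FPC-GFP and 522 to 833 CPM in FPC-LIPA livers. Lyz2 alone made up much of this sum, with means of 49.7, 136 and 499.6 CPM in CON-GFP, FPC-GFP and FPC-LIPA livers.

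The 10 genes spanned about 3 orders of magnitude in level. Per kilobase of merged exons, Lcat was highest in CON-GFP livers at 269 ± 65.6 CPM per kb (SD, n = 6), followed by Lipa at 35.8 ± 4.99 CPM per kb. Soat2 at 18.9 ± 4.87 and Scarb1 at 17 ± 3.62 CPM per kb did not differ beyond their spread, and Npc2 followed at 11.9 ± 1.80 CPM per kb. Nceh1 at 8.66 ± 1.84 and Npc1 at 7.88 ± 1.03 CPM per kb were likewise within their spread, with Stard3 below them at 4.22 ± 0.637 CPM per kb. Soat1 at 0.269 ± 0.0648 and Gramd1b at 0.257 ± 0.0863 CPM per kb were lowest and indistinguishable. Thus Soat2, the esterifying enzyme of hepatocytes and enterocytes, was far more abundant per length than Soat1, the form found in most other cells, macrophages included. These levels depend on the length chosen. With the longest principal transcript in place of all exons, Scarb1 came to 57.4, Lipa to 81.8 and Npc1 to 17.1 CPM per kb. Npc1 then stood above Nceh1 at 10.2 CPM per kb, and Npc2 at 19.6 was no longer below Soat2 at 19.0 CPM per kb.

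**Figure D1:**
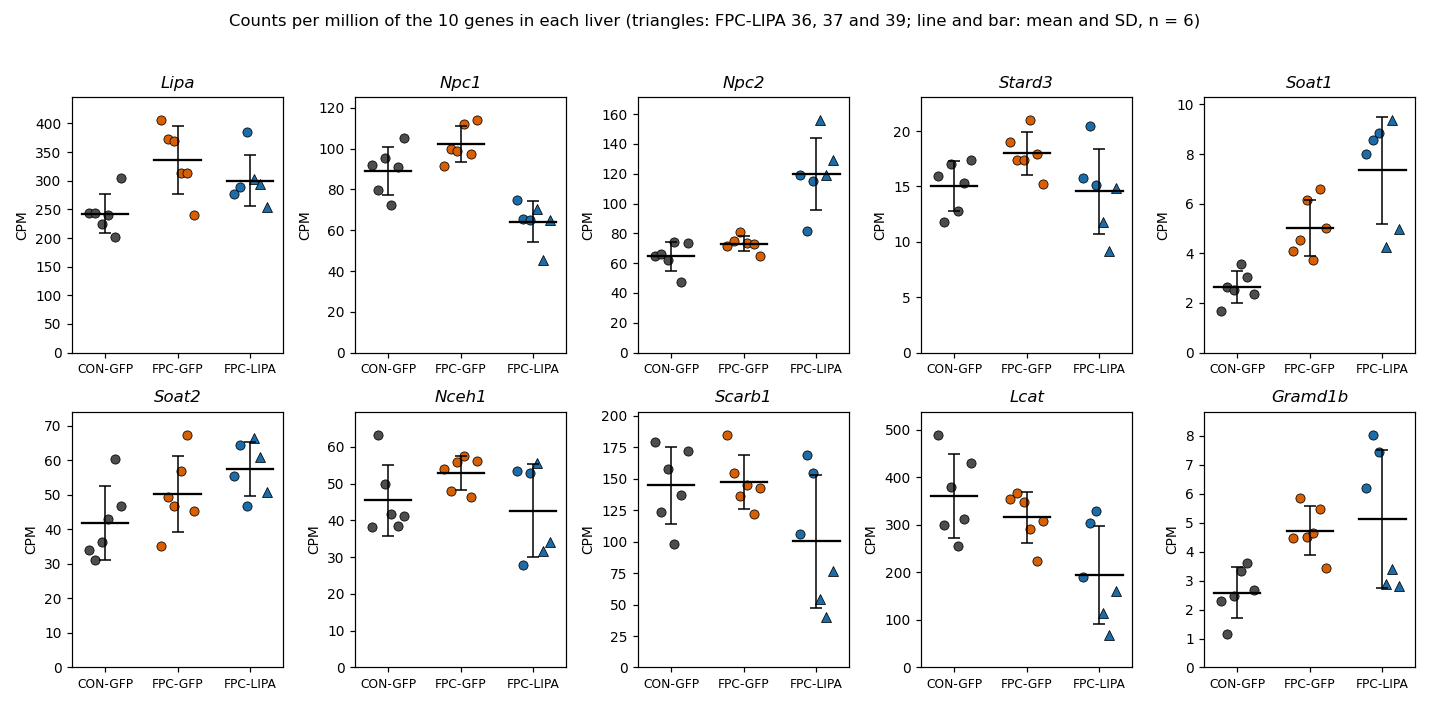
Level of each of the 10 genes in CPM (vertical axes, linear and from 0) in the 6 livers of each group; points are livers, the line and bar are mean and SD, and triangles are FPC-LIPA 36, 37 and 39. Soat1 in FPC-GFP livers (3.73 to 6.60 CPM) lies above all CON-GFP livers, and in FPC-LIPA livers Npc2 lies above and Npc1 below all FPC-GFP livers.

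The first comparison, FPC-GFP against CON-GFP, asked what the diet did in livers with the control vector. Of the 10 genes 3 passed: Soat1, Gramd1b and Lipa were higher on the FPC diet, by 1.89-fold, 1.80-fold and 1.38-fold, and no gene of the 10 passed as lower. A difference passed where edgeR's quasi-likelihood test gave an adjusted p under 0.05. Among all 14307 genes tested 23.8% passed, 12.9% as higher and 10.9% as lower, so 3 of 10 was near the background. None of the 10 also reached a 2-fold change, which 7.20% of all genes did, and 1 of the 10 had groups that did not overlap, against 10.6% of all genes. The median log2 fold change of the 10 was 0.23, against 0.01 over all genes tested.

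Lipa, the acid lipase gene itself, lay at 202, 241 and 304 CPM (lowest, median and highest) among the controls and at 240.2, 342 and 406 CPM on the FPC diet. In all, 5 of the 6 FPC-GFP livers were above every CON-GFP liver, and FPC-GFP 20 fell among the controls, so the groups overlapped. The log2 fold change was 0.46 ± 0.14 (SE, 95% interval 0.17 to 0.75, adjusted p = 0.0244), and the adjusted p ran from 0.00258 to 0.0645 over 24 alternative settings. The call was lost without FPC-GFP 11, 12 or 13 (log2 fold change 0.40, 0.43 and 0.43, adjusted p = 0.0506, 0.0528 and 0.0509) and with all 18 livers in the same fit (0.47, adjusted p = 0.0645). In whole liver, fewer or more cells of a type and less or more RNA per cell cannot be told apart. The summed macrophage markers given above were higher in FPC-GFP livers and did not overlap with CON-GFP, with 8 of 10 of them passing as higher. Of the Kupffer cell markers 7 of 8 passed as higher, against 12.9% of all genes. Of the hepatocyte markers 5 of 10 passed as lower, against 10.9% of all genes. The part of these cells in the result was not tested.

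The other lysosomal genes were less clear on the diet. Npc1 averaged 89.1 ± 11.6 CPM without and 102 ± 8.80 CPM with the diet, a log2 fold change of 0.19 (95% interval -0.04 to 0.42, adjusted p = 0.218). Npc2 had 64.7 ± 9.79 and 73.2 ± 5.23 CPM, a log2 fold change of 0.17 (-0.07 to 0.41, adjusted p = 0.283). Stard3, a late endosomal sterol carrier that tethers endosomes to the endoplasmic reticulum, had 15.0 ± 2.26 and 18.0 ± 1.93 CPM, a log2 fold change of 0.25 (adjusted p = 0.135). These 3, and Nceh1, passed when libraries were scaled by size alone, a setting that moved the median log2 fold change of all genes to 0.21; relative to that shift the values of 0.39 (Npc1), 0.37 (Npc2), 0.45 (Stard3) and 0.42 (Nceh1) stood at about the size seen with TMM scaling.

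Soat1, which esterifies cholesterol in the endoplasmic reticulum, was low in every liver. It lay at 1.67, 2.59 and 3.55 CPM among the controls and at 3.73, 4.79 and 6.60 CPM on the FPC diet, with 41 to 109 and 98 to 220 reads per liver behind these values. Every FPC-GFP liver was above every CON-GFP liver. The log2 fold change was 0.92 ± 0.20 (95% interval 0.49 to 1.34, adjusted p = 0.00513), and Soat1 passed under 24 of 24 alternative settings (adjusted p 0.000198 to 0.0311). The part of the higher macrophage and Kupffer cell markers given above in the Soat1 result was not tested. Soat2 averaged 41.9 ± 10.8 CPM without and 50.1 ± 11.0 CPM with the diet, with a log2 fold change of 0.25 (-0.12 to 0.62, adjusted p = 0.308), so a change of up to about 1.54-fold was within its interval. The number of Soat1 reads per Soat2 read had a median of 0.0603 (0.0492 to 0.0851) among the controls and 0.105 (0.0657 to 0.131) on the diet. The groups thus overlapped in this ratio, which is given without a test.

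Gramd1b encodes an Aster protein, which carries cholesterol from the plasma membrane to the endoplasmic reticulum. Its level was 1.16, 2.57 and 3.61 CPM among the controls and 3.43, 4.57 and 5.86 CPM on the FPC diet. Only FPC-GFP 20, the lowest of its group, lay within the CON-GFP range. The log2 fold change was 0.85 ± 0.22 (95% interval 0.37 to 1.32, adjusted p = 0.014), and it passed under 23 of 24 alternative settings, the exception being all 18 livers in the same fit (0.86, adjusted p = 0.0703, range of adjusted p over the settings 0.00153 to 0.0703). Of its 10075 exon bases, 114 are shared with 1700110K17Rik and 84 with Gm17540 on the opposite strand, whose reads cannot be told apart from Gramd1b's without strand.

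The genes of ester hydrolysis and of HDL gave no call on the diet. Nceh1, a neutral cholesteryl ester hydrolase, averaged 45.5 ± 9.68 CPM without and 53.0 ± 4.68 CPM with the diet (log2 fold change 0.21, 95% interval -0.07 to 0.49, adjusted p = 0.248), and passed without CON-GFP 2, its highest control (0.33, adjusted p = 0.0336, range over the settings 0.016 to 0.487). Scarb1, the HDL receptor, had 145 ± 30.8 and 148 ± 21.2 CPM, a log2 fold change of 0.02 with an interval from -0.30 to 0.33. Lcat had 361 ± 88.1 and 315 ± 53.6 CPM, a log2 fold change of -0.21 (-0.56 to 0.15, adjusted p = 0.378).

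**Figure D2:**
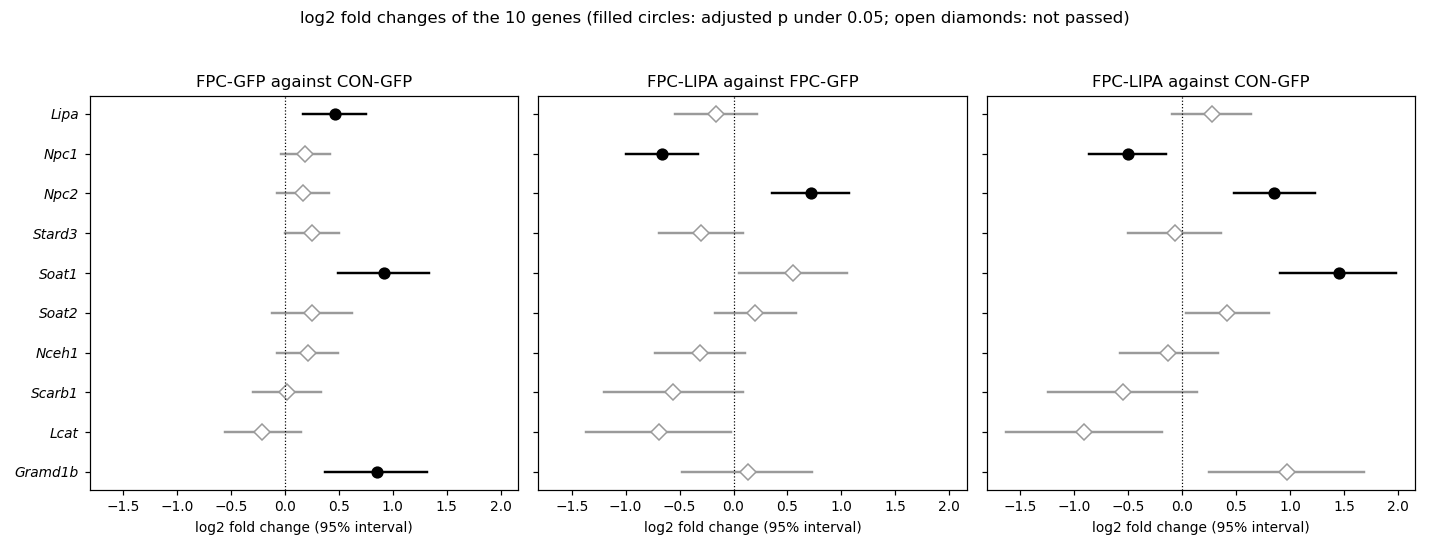
log2 fold changes (horizontal axes) of the 10 genes (vertical axis) in the 3 comparisons, with 95% intervals; filled circles passed at an adjusted p under 0.05 and open diamonds did not. Soat1, Gramd1b and Lipa passed in the first panel, Npc1 and Npc2 in the second, and Soat1, Npc2 and Npc1 in the third.

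The second comparison, FPC-LIPA against FPC-GFP, asked what the LIPA vector did on the FPC diet. The pair of genes that act directly after LAL went opposite ways: Npc2 was 1.64-fold higher and Npc1 fell to 0.631-fold, while none of the other 8 passed. Neither call held without FPC-LIPA 36, 37 and 39, the livers with the high ribosomal share. Among 14620 genes tested 21.2% passed, 14.4% as higher and 6.87% as lower, so 2 of 10 was near the background. None of the 10 reached a 2-fold change as well, which 11.4% of all genes did. Groups did not overlap for 2 of the 10, Npc1 and Npc2, against 7.58% of all genes. The median log2 fold change of the 10 was -0.23, against 0.04 over all genes. The same FPC-GFP livers enter both comparisons given so far, so their values are not independent of each other.

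Endogenous Lipa lay at 254, 292 and 385 CPM in FPC-LIPA livers. All 6 FPC-LIPA livers lay inside the range of the FPC-GFP livers, 240.2 to 406 CPM. The log2 fold change was -0.16 (95% interval -0.54 to 0.22, adjusted p = 0.513), an interval of 0.690-fold to 1.16-fold. Whether reads of the human transgene were counted as mouse Lipa was not tested.

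Npc2, the soluble carrier of the lysosome lumen, lay at 65, 73.1 and 81.2 CPM in FPC-GFP and at 81.4, 119 and 156 CPM in FPC-LIPA. Every FPC-LIPA liver was above every FPC-GFP liver, FPC-LIPA 33 by a margin of less than 1 CPM. The log2 fold change was 0.72 ± 0.17 (95% interval 0.36 to 1.07, adjusted p = 0.0167). Npc1, the membrane exporter, lay at 91.4, 99.2 and 114 CPM in FPC-GFP and at 45.2, 65.3 and 74.7 CPM in FPC-LIPA. Every FPC-LIPA liver was below every FPC-GFP liver, and 5 of the 6 were also below every CON-GFP liver. The log2 fold change was -0.66 ± 0.16 (95% interval -1.0 to -0.33, adjusted p = 0.0173). Of the 11317 exon bases of Npc1, 511 are shared with Rmc1 and 90 with Gm15956 on the opposite strand.

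Without FPC-LIPA 36, 37 and 39, the livers with the high ribosomal share, the log2 fold change of Npc2 was 0.53 (adjusted p = 0.0831) and that of Npc1 -0.57 (adjusted p = 0.0548), and neither passed. With that setting 0 of the 10 genes passed in edgeR's test, 4 had an unadjusted p under 0.05, and 1.22% of all 15246 genes passed. With sheet numbers 55 to 68 alone the values were 0.67 (adjusted p = 0.0693) and -0.56 (adjusted p = 0.068). Under the other 23 of 25 alternative settings both genes passed, and the adjusted p ran from 0.000302 to 0.0831 for Npc2 and from 0.000138 to 0.068 for Npc1. Of the cell type markers, 7 of 10 for monocytes and macrophages and 4 of 8 for Kupffer cells passed as higher in FPC-LIPA, against 14.4% of all genes. Csf1r (log2 fold change -0.13, adjusted p = 0.808) and Cd68 (0.12, adjusted p = 0.813) were among the macrophage markers that did not pass. Summed Kupffer cell markers were 435 to 621 CPM in FPC-GFP and 472 to 947 CPM in FPC-LIPA, and C6 of that list passed as lower. Without FPC-LIPA 36, 37 and 39, 1 of the 10 and 2 of the 8 passed as higher, with median log2 fold changes of 1.20 and 0.75, against 1.16 and 0.79 with them. Of the 10 hepatocyte markers 2 passed as lower, against 6.87% of all genes, among them Hnf4a (489 CPM in FPC-GFP and 247 CPM in FPC-LIPA, adjusted p = 0.0425). Without those 3 livers 0 of the 10 passed edgeR's test (3 had an unadjusted p under 0.05). The part of these markers in the Npc1 and Npc2 values was not tested.

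The number of Npc2 reads per Npc1 read needs no scaling between livers. It lay at 0.517, 0.704 and 1.03 among the controls, at 0.573, 0.751 and 0.823 in FPC-GFP livers and at 1.24, 1.87 and 2.64 in FPC-LIPA livers. Every FPC-LIPA liver thus had more Npc2 than Npc1 reads. The 3 livers without the high ribosomal share, at 1.59, 1.24 and 1.77, lay above all 12 livers with the GFP vector. Because every FPC-LIPA liver was above FPC-GFP in Npc2 and below it in Npc1, the separation from FPC-GFP in this ratio was fixed beforehand. It is no further result beside the values of Npc1 and Npc2. The ratio was chosen after the values had been seen and is given without a test.

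**Figure D3:**
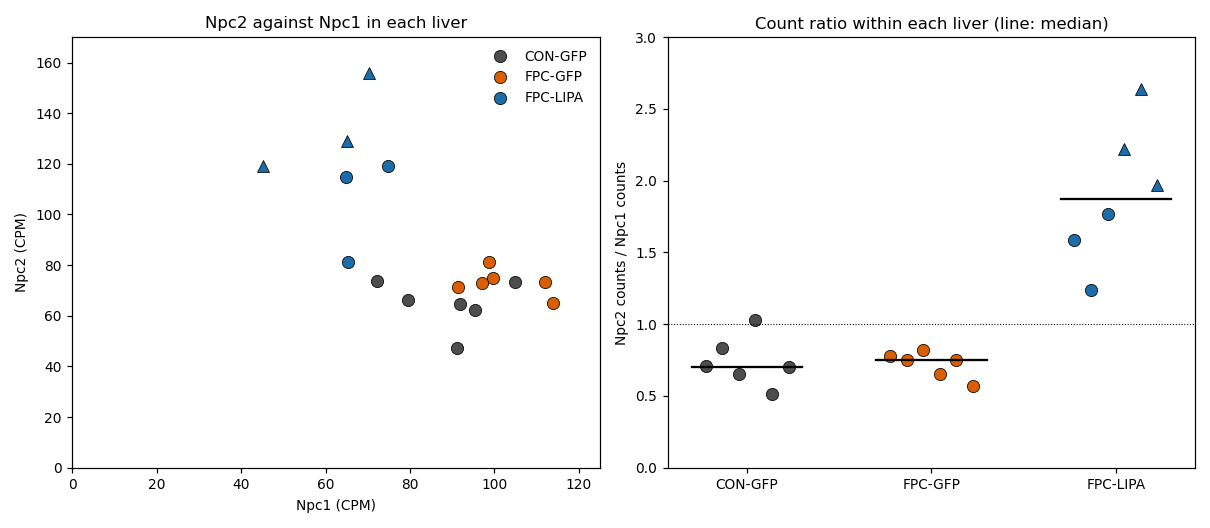
Left, Npc2 against Npc1 in CPM (both axes from 0), 1 point per liver; right, Npc2 counts per Npc1 count in each liver, with the median as a line and a dotted line at equal counts. Triangles are FPC-LIPA 36, 37 and 39. FPC-LIPA livers lie at 1.24 to 2.64 and the 12 GFP livers at 0.517 to 1.03.

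Stard3, at 9.21 to 20.5 CPM in FPC-LIPA, had a log2 fold change of -0.30 against FPC-GFP (-0.69 to 0.09, adjusted p = 0.233). In the endoplasmic reticulum, Soat1 lay at 4.26, 8.29 and 9.37 CPM in FPC-LIPA, with 4 of 6 livers above every FPC-GFP liver and FPC-LIPA 36 and 39 within their range. Its log2 fold change of 0.55 (0.05 to 1.05) did not pass (adjusted p = 0.0973, 0.0386 to 0.29 over the settings), and it passed under 1 of 25 settings, with the length trend removed (0.69). Soat2 had 57.5 ± 7.80 CPM in FPC-LIPA and a log2 fold change of 0.20 (-0.17 to 0.58, adjusted p = 0.402). Gramd1b had 6.21 to 8.04 CPM in FPC-LIPA 31, 33 and 34, all above the FPC-GFP livers, and 2.80 to 3.41 CPM in FPC-LIPA 36, 37 and 39, all below them. Its log2 fold change over all 6 livers was 0.13 (-0.48 to 0.73, adjusted p = 0.76), and it was 0.62 without the latter 3 (adjusted p = 0.111).

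Nceh1 had 42.6 ± 12.7 CPM in FPC-LIPA, with a log2 fold change of -0.31 (-0.73 to 0.11, adjusted p = 0.245). Scarb1 lay at 106, 169 and 155 CPM in FPC-LIPA 31, 33 and 34 and at 54.6, 40.4 and 76.7 CPM in FPC-LIPA 36, 37 and 39. FPC-LIPA 33 and 34 lay within the FPC-GFP range of 122 to 185 CPM, FPC-LIPA 31 below it and the latter 3 further below. Over all 6 the log2 fold change was -0.56 (-1.20 to 0.09, adjusted p = 0.178), and without FPC-LIPA 36, 37 and 39 it was -0.03 (adjusted p = 0.934). Lcat showed the same division, with 191, 304 and 328 CPM in the former and 114, 68.3 and 161 CPM in the latter, against 223 to 367 CPM in FPC-GFP. Its log2 fold change was -0.69 (-1.37 to -0.02, adjusted p = 0.117), and -0.19 without those 3 livers (adjusted p = 0.641). Without FPC-LIPA 33 both Scarb1 (-0.77, adjusted p = 0.047, 0.047 to 0.934 over the settings) and Lcat (-0.87, adjusted p = 0.0435, 0.0435 to 0.641 over the settings) passed, and Lcat also passed without FPC-LIPA 34 (-0.91, adjusted p = 0.0449).

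**Figure D4:**
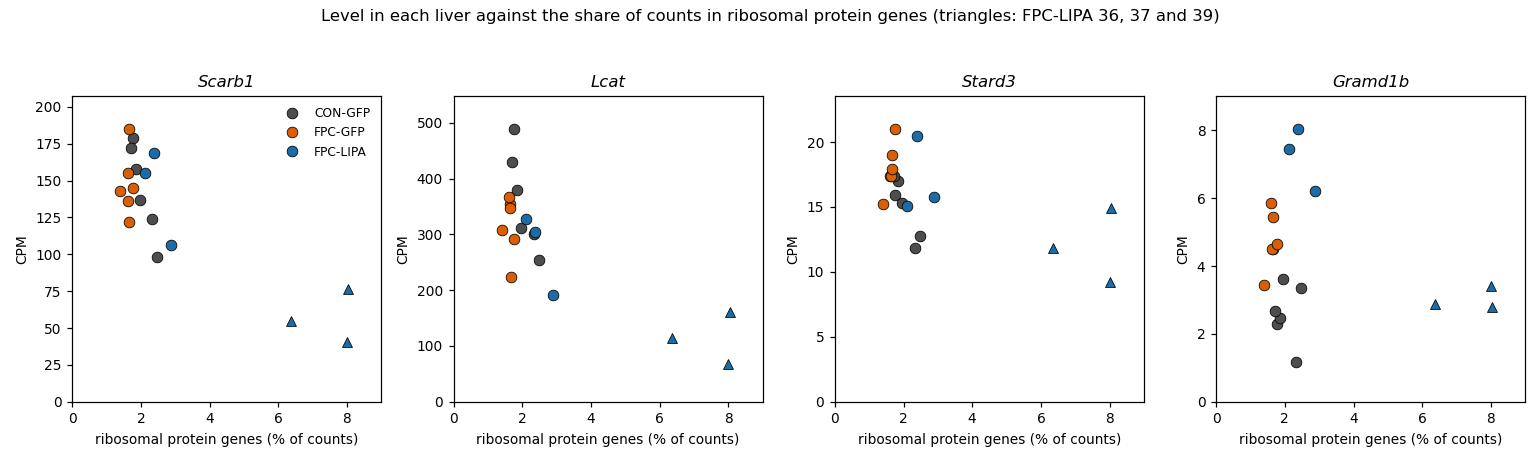
Levels of Scarb1, Lcat, Stard3 and Gramd1b in CPM (vertical axes from 0) against the percent of counts in 84 ribosomal protein genes (horizontal axes), 1 point per liver. The 3 triangles at 6.36% to 8.04% are FPC-LIPA 36, 37 and 39, in which Scarb1 lies at 40.4 to 76.7 CPM.

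Scarb1 and Lcat, which act in sequence on HDL, also moved together from liver to liver inside the groups. In deviations from the group means of log2 CPM over the 18 livers, their Spearman rho was 0.94, the highest of the 45 pairs of the 10 genes, followed by Stard3 with Scarb1 (0.78) and Stard3 with Lcat (0.66). Npc1 and Npc2 had a rho of -0.12 by this measure, and the lowest pair was Npc2 with Scarb1 (-0.51). These values are descriptions over livers that were scaled together, FPC-LIPA 36, 37 and 39 among them. Which library kit each liver had is not known.

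The third comparison, FPC-LIPA against CON-GFP, set diet and vector together against the controls, and shares its livers with both others. Soat1 showed the largest change of the 10, a 2.72-fold rise, Npc2 rose 1.81-fold and Npc1 fell to 0.706-fold. These 3 of 10 compare with 22.9% of 14433 genes that passed, 14.7% as higher and 8.20% as lower. Soat1 alone also reached 2-fold, as 15.1% of all genes did, and 2 of the 10, Soat1 and Npc2, did not overlap between groups, against 11.1% of all genes. The median log2 fold change of the 10 was 0.10, against 0.04 over all genes. Of the monocyte and macrophage markers 9 of 10 and of the Kupffer cell markers 7 of 8 passed as higher, against 14.7% of all genes. Of the hepatocyte markers 6 of 10 passed as lower, against 8.20%, as did 1 Kupffer cell marker. The part of these cells in the values of Soat1, Npc2 and Npc1 was not tested.

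Soat1 averaged 2.64 ± 0.634 CPM among the controls, 5.02 ± 1.14 CPM with diet and GFP, and 7.34 ± 2.17 CPM with diet and LIPA. Its log2 fold change of 1.45 ± 0.25 (95% interval 0.91 to 1.98, adjusted p = 0.00125) was 1.68 without FPC-LIPA 36, 37 and 39 (adjusted p = 0.000314). Npc2 had a log2 fold change of 0.85 ± 0.18 (0.48 to 1.23, adjusted p = 0.0036), which was 0.70 without those 3 livers (adjusted p = 0.0133). Soat1 and Npc2 passed under 25 of 25 alternative settings. Npc1, at a log2 fold change of -0.50 ± 0.17 (-0.86 to -0.15, adjusted p = 0.0415), passed under 10 of 25, with adjusted p from 0.00724 to 0.231. Its call was lost without CON-GFP 1, 3, 7 or 8 and without FPC-LIPA 34, 36, 37 or 39 (log2 fold changes -0.42 to -0.57 over all single livers left out), and without FPC-LIPA 36, 37 and 39 together (-0.38, adjusted p = 0.097).

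Gramd1b missed the threshold here (0.97, 95% interval 0.25 to 1.69, adjusted p = 0.0513) and passed under 11 of 25 settings, with 1.46 without FPC-LIPA 36, 37 and 39 (adjusted p = 0.00303, range over the settings 0.00303 to 0.154). Lcat, at 194 ± 103 CPM in FPC-LIPA, had a log2 fold change of -0.91 (-1.63 to -0.19, adjusted p = 0.0644) and passed under 6 of 25, but stood at -0.39 without those 3 livers (adjusted p = 0.288, range over the settings 0.0177 to 0.288). Soat2 (0.42, 0.04 to 0.81, adjusted p = 0.103) passed under 2 settings, and Lipa (0.28, -0.09 to 0.64, adjusted p = 0.243), Stard3 (-0.07, adjusted p = 0.823), Nceh1 (-0.13, adjusted p = 0.688) and Scarb1 (-0.55, adjusted p = 0.227) passed under none.

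Lists of neighbouring genes, without the 10, were counted in the same fits. Of 17 partners in lysosomal egress and membrane contacts, 4 passed on the diet, 1 higher and 3 lower, where 23.8% of all genes passed. The median log2 fold change of the list was -0.10, against 0.01 over all genes. Osbp, which exchanges cholesterol and phosphoinositide at membrane contacts, rose by a log2 fold change of 0.37 (adjusted p = 0.0421), and Gramd1c, an Aster relative of Gramd1b, had -0.81 (adjusted p = 0.00256). Lamp2, a protein of the lysosomal membrane, had -0.59 on the diet (adjusted p = 0.014) and 1.29 in FPC-LIPA against FPC-GFP (adjusted p = 0.04). In FPC-LIPA against FPC-GFP 4 of the 17 passed, where 21.2% of all genes did, the others being Stard3nl at 1.04 (adjusted p = 0.0311), Osbp at -0.57 (adjusted p = 0.0495) and Stard5 at -0.62 (adjusted p = 0.0482). Without FPC-LIPA 36, 37 and 39 none of the 17 passed edgeR's test in that comparison (3 had an unadjusted p under 0.05), and Lamp2 stood at 0.09 (adjusted p = 0.831).

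Of 9 genes for the uptake of lipoproteins, upstream of the lysosome, 7 passed as higher on the FPC diet, as 12.9% of all genes did, with a median log2 fold change of 0.62 against 0.01 over all genes. The lipoprotein receptor gene Vldlr had a log2 fold change of 1.18 (adjusted p = 0.0276) and the scavenger receptor Cd36 had 0.60 (adjusted p = 0.0179). In FPC-LIPA against FPC-GFP, 2 passed as higher, Msr1 (1.47, adjusted p = 0.0112) and Cd36 (1.20, adjusted p = 0.04), and 4 as lower, among them Lrp1, an endocytic receptor of remnant lipoproteins (-0.91, adjusted p = 0.0203). None of the 9 passed edgeR's test there without FPC-LIPA 36, 37 and 39 (5 had an unadjusted p under 0.05), a setting in which 1.22% of all genes passed. Lrp1 was then at -0.52 (adjusted p = 0.11), Msr1 at 0.94 (adjusted p = 0.0698) and Cd36 at 0.28 (adjusted p = 0.528).

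Of 13 lysosomal lipid-degrading enzymes beside Lipa, 3 passed as higher on the diet and 1 as lower, against 12.9% and 10.9% of all genes. Psap, the precursor of the saposin activators, had 0.66 (adjusted p = 0.00306) and Arsa 0.86 (adjusted p = 0.0114). In FPC-LIPA against FPC-GFP 2 of the 13 passed, both as higher, against 14.4% of all genes, among them the acid ceramidase gene Asah1 (1.19, adjusted p = 0.0206). Asah1 did not pass without FPC-LIPA 36, 37 and 39 (0.51, adjusted p = 0.11).

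Beside Nceh1, 8 of 9 droplet-side genes could be tested; Cel, with no reads in some groups, was not. On the diet 2 of the 8 passed as higher and 2 as lower, where 23.8% of all genes passed, and in FPC-LIPA against FPC-GFP 1 passed each way, where 21.2% did. Plin2, which coats lipid droplets, had a log2 fold change of 0.99 on the diet (adjusted p = 0.02), and the carboxylesterase gene Ces1g had -1.02 (adjusted p = 0.0028). Lipe, the hormone-sensitive lipase gene, had -1.23 in FPC-LIPA against FPC-GFP (adjusted p = 0.0136) and -0.94 without FPC-LIPA 36, 37 and 39 (adjusted p = 0.0479), and was the only gene of the 5 lists to pass there. Aadac passed as lower on the diet (-0.49, adjusted p = 0.00341) and as higher in FPC-LIPA against FPC-GFP (0.86, adjusted p = 0.0497), where it stood at 0.03 without FPC-LIPA 36, 37 and 39 (adjusted p = 0.937).

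Among 10 HDL partners of Scarb1 and Lcat, 4 passed as higher and 1 as lower on the diet, against 12.9% and 10.9% of all genes. Apoa4 had 1.69 (adjusted p = 0.00078), the phospholipid transfer gene Pltp 1.44 (adjusted p = 0.0183) and the sterol exporter gene Abcg1 1.21 (adjusted p = 0.000198). Pdzk1, the scaffold that holds SCARB1 at the hepatocyte surface, rose on the diet by 0.56 (adjusted p = 0.00967) and stood at -0.63 in FPC-LIPA against FPC-GFP (adjusted p = 0.0203), the only call of this list there, where 21.2% of all genes passed. Without FPC-LIPA 36, 37 and 39 Pdzk1 was at -0.44 and did not pass (adjusted p = 0.1).

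**Figure D5:**
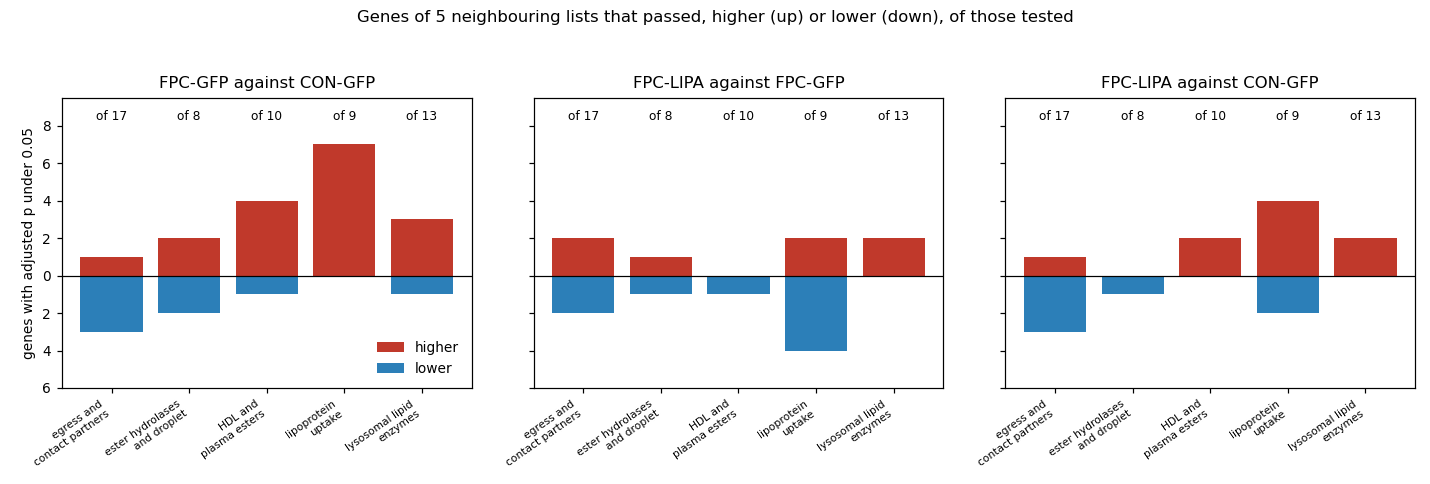
Number of genes (vertical axis) of 5 lists (horizontal axis) that passed as higher (up) or lower (down) in each comparison, with the number tested above each bar. On the diet 7 of 9 uptake genes passed as higher; in the second panel 4 of the 9 passed as lower and 2 as higher.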

How the data were processed

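Liver RNA from 18 mice was sequenced by the authors, who trimmed reads with Trimmomatic 0.33, aligned them to the mouse genome (mm10) with HISAT2 2.1.0 and deposited raw counts per gene made with featureCounts (Subread). Strand and multi-mapping settings and the annotation release are not given in the sources used here, and 5 columns of the table, not those of the 18 livers, were not used. All 55487 entries name a gene. Symbols were used as deposited.

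Each comparison was fitted on all genes of its 12 livers with edgeR 4.0.16 (quasi-likelihood test, TMM scaling, filterByExpr filter) in R 4.3.3, and p-values were adjusted over all genes tested by the Benjamini-Hochberg method; p-values are two-sided. CPM were computed from TMM-scaled library sizes. Livers are separate mice. Alternatives were other scalings, DESeq2 1.42.0, limma-voom 3.58.1, other filters, all 18 livers in 1 fit, sheet number, removed length or GC trends, and livers left out; list counts without FPC-LIPA 36, 37 and 39 were added after the data had been seen. The fitting code was tested on simulated data. Exon lengths and gene positions came from GENCODE for GRCm38, and promoters from RefSeq. Depth per liver limits Soat1 and Gramd1b most. The 10 genes and all lists were chosen with earlier results of these data known. All 10 are described; of each list, the 2 most abundant genes and up to 3 that passed with the largest change per comparison could be named, and the text gives those among them that passed, apart from some that are not reported here. For mouse 37 the labels also give 37b.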

Additional observations from a re-analysis of the deposited data

Results flagged for a closer look

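In 2 of the 30 sets of 6 livers (10 genes in 3 groups), 1 liver lay far from the other 5 by the gap to its neighbour set against the whole range of the group, a distance that chance alone gives in about 1 of 20 sets. Lipa in FPC-LIPA 34 was at 385 CPM, and the next FPC-LIPA liver was at 303 CPM. That liver still lay below the highest FPC-GFP liver (406 CPM). Npc1 in FPC-LIPA 37 was at 45.2 CPM, and the next was at 64.8 CPM. FPC-LIPA 37 had the fewest counts of the 18 livers, 16632146, and a ribosomal share of 8.00%. The part of these in its Npc1 level was not tested.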

How the results depend on the processing

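No paired analysis was possible because the groups share no mouse numbers. On the diet 3 of the 10 genes passed, against 7 with library size alone (which moved the median log2 fold change of all genes to 0.21), 1 with all 18 livers in the same fit, 1 at an adjusted p under 0.01 and 0 with a 2-fold change as well; leaving out 1 liver gave 2 to 4. In FPC-LIPA against FPC-GFP 2 passed, against 0 with sheet numbers 55 to 68 alone, 0 without FPC-LIPA 36, 37 and 39, 0 at an adjusted p under 0.01 and 0 with 2-fold; leaving out 1 liver gave 2 to 4, the 4 without FPC-LIPA 33. In FPC-LIPA against CON-GFP 3 passed, against 5 with the DESeq2 test, 5 with all 18 livers, 6 with the GC trend removed and 1 with 2-fold; leaving out 1 liver gave 2 to 4. Of 740 log2 fold changes under alternatives 674 kept their direction and side of the threshold, 24 lost a call, 28 gained a call and 14 changed sign; none of the 14 had passed. Scarb1 on the diet was -0.02 and -0.08 with length and GC trends removed and -0.07 to 0.09 with 1 liver left out. Stard3 was 0.02 with the GC trend removed in FPC-LIPA against FPC-GFP. Against CON-GFP, Stard3 was 0.02 with upper-quartile factors, 0.06 with library size alone, 0.19 without FPC-LIPA 36, 37 and 39, 0.07 with the GC trend removed and -0.21 to 0.03 with 1 liver left out, and Nceh1 was 0.04 with sheet numbers 55 to 68 alone. Gramd1b in FPC-LIPA against FPC-GFP was -0.05 to 0.25 with 1 liver left out. The cause of these changes was not tested.

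Whole-liver RNA does not resolve cell types, protein or enzyme activity were not analysed here, and human LIPA was not counted. Soat1 and Gramd1b rested on 41 to 348 and 18 to 326 reads per liver. Values of the second comparison without FPC-LIPA 36, 37 and 39 rest on 3 livers against 6, and 186 of all genes passed there in place of 3102.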

Other observations

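Of the genes outside the 10, those with a level most like that of mouse Lipa over the 18 livers were Acsl5, an acyl-CoA synthetase gene (Spearman rho 0.86 in log2 CPM), Hunk (0.81) and Abhd2 (0.81), among 12740 genes with a mean of at least 1 CPM. In deviations from the group means the closest were Slc22a26 (0.76), Alb (0.73) and Wnt2 (0.72). Among the 10 genes themselves, Gramd1b had the highest rho with Lipa in log2 CPM (0.53), and Npc2 the highest in deviations from the group means (0.42). These livers were scaled together, which library kit each had is not known, and the values are descriptions.

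The number of Soat1 reads per Nceh1 read, which sets an esterifying enzyme beside a hydrolase, had a median of 0.0543 in CON-GFP (0.0418 to 0.0851), 0.0924 in FPC-GFP (0.0648 to 0.142) and 0.159 in FPC-LIPA (0.0764 to 0.308) livers. The highest values were in FPC-LIPA 33 (0.308) and 37 (0.294), where Nceh1 was at 27.8 and 31.8 CPM. This ratio leaves out Soat2, the more abundant esterifying enzyme gene, at 50.1 ± 11.0 CPM against 5.02 ± 1.14 CPM for Soat1 in FPC-GFP livers. Lipa reads per Nceh1 read had medians of 5.49, 6.68 and 7.38, with ranges that overlapped between all 3 groups. These ratios were chosen after the values had been seen.

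The cell type markers other than those of hepatocytes and macrophages moved as follows. On the diet 3 of 8 stellate cell, 3 of 6 endothelial, 1 of 5 cholangiocyte and 0 of 4 B cell, 0 of 3 T cell and 0 of 3 neutrophil markers passed, all as higher. Of all genes 12.9% passed as higher there. In FPC-LIPA against FPC-GFP 3 of 8 stellate cell, 0 of 6 endothelial, 0 of 5 cholangiocyte, 2 of 5 B cell, 1 of 4 T cell and 2 of 3 neutrophil markers passed, all as higher. Of all genes 14.4% passed as higher there. Without FPC-LIPA 36, 37 and 39 no marker of these 6 lists passed edgeR's test in that comparison, where 1.22% of all genes did. An unadjusted p under 0.05 was then seen for 2 of 8 stellate cell, 2 of 6 endothelial, 0 of 5 cholangiocyte, 5 of 5 B cell, 1 of 5 T cell and 2 of 4 neutrophil markers. The summed stellate cell markers were 313 to 1082 CPM in FPC-LIPA, with the highest in FPC-LIPA 37, against 240.1 to 302 CPM in FPC-GFP. The neutrophil markers Ly6g and Mpo were at 0 reads in some groups. The part of these cells in the values of the 10 genes was not tested.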
